A study of Mus musculus with 22 samples.

Results

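The genes described here encode the proteins of oxidative phosphorylation, measured in mouse lines of embryonic germ (EG) cells and of embryonic stem (ES) cells in 2 kinds of culture. Members were all genes whose symbols begin with Nduf, Uqcr, Cox4 to Cox8 or Atp5, or are Sdha, Sdhb, Sdhc or Sdhd, each read from the probe set whose mean was highest. This rule gave 89 of 19938 genes: 36 of complex I, 7 complex I assembly factors (Ndufaf genes, which match the symbols but are not subunits), 4 of complex II, 8 of complex III, 17 of complex IV and 17 of complex V. Complexes were assigned by symbol, so that complex I here includes Ndufa4, since assigned to complex IV, and its paralogue Ndufa4l2. Among other symbols of the rule, Cox7c, Ndufaf8, Ndufb1, Ndufb4, Ndufb4b and Ndufb4c were not analysed here, and neither were subunits encoded in mitochondrial DNA.

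Total RNA of 22 samples was hybridised to Affymetrix mouse gene arrays, 1 array per sample. EG 2i (4 lines, 3 labelled female) were EG lines derived in 2i medium, and EG 2is (4 lines, 2 female) were EG lines kept in FCS medium for the first 2 days and then in 2i medium. Their comparison group, EG FCS (4 lines, 1 female), was grown in fetal calf serum medium with leukaemia inhibitory factor (LIF) on a layer of mouse embryonic fibroblasts. ES 2i (5 lines, 2 female) and ES FCS (5 lines, 2 female) were ES lines in the corresponding media. 2i medium was N2B27 with LIF, the MEK inhibitor PD0325901 and the GSK3 inhibitor CHIR99021, and cells in it lay on laminin without feeders. All samples share 1 strain label, a mixed background of 129SvEv x Oct4-delta-PE-GFP transgenic. The cell type label of all ES samples reads EGCs, whereas their titles and source names say ES, and they were analysed as ES lines. Batch 1 of the labels held 16 arrays, among them every EG array, and batch 2 held 6 ES arrays, 3 in each medium.

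Oxidative phosphorylation takes place in the inner mitochondrial membrane. Complex I (NADH dehydrogenase) and complex II (succinate dehydrogenase) pass electrons through ubiquinone to complex III (the cytochrome bc1 complex), cytochrome c and complex IV (cytochrome c oxidase), which reduces oxygen. Complexes I, III and IV pump protons, and complex V (ATP synthase) uses the proton gradient to make ATP. Mouse pluripotent cells are known to draw on both oxidative phosphorylation and glycolysis, and the balance shifts between the naive and the primed state.

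The values are log2 RMA expression values, so that a difference of 1 is a 2-fold change. Correlations between arrays within a group were 0.979 to 0.998. Replicates are samples with labels of their own, and each is called a line. Nothing in the labels says more about separate cultures, and the p-values measure only the spread between these samples. As a background level, the highest value of the Y-linked gene Eif2s3y among arrays labelled female was used, 4.88, against 7.55 to 8.82 in arrays labelled male. Only Cox8b, a muscle isoform of complex IV, lay below it in all 5 group means. The labels of line 1 of EG 2i and its values stood apart: it is labelled female and its Eif2s3y value was 4.61, but its X-linked genes exceeded its autosomal genes by 0.09 (log2, medians relative to male lines). The other 6 female lines in 2i or 2is ranged from 0.34 to 0.76 on this measure and the male lines from -0.09 to 0.07. Of the 3 female lines in FCS, line 1 of EG FCS was also near the male lines at 0.12, and the 2 of ES FCS stood at 0.28 and 0.38. The main results for EG 2i and for sex are also given without these lines. Feeder cells and medium changed together: 19 fibroblast marker genes averaged 5.83 ± 0.06 in EG 2i and 5.79 ± 0.09 in EG 2is, against 6.78 ± 0.34 in EG FCS (SD, n = 4 each), and 5.79 ± 0.13 in ES 2i against 6.68 ± 0.28 in ES FCS (SD, n = 5 each). Of these 19 markers 4 lay below background in EG 2i, 6 in EG 2is and 2 in EG FCS, 6 in ES 2i and 1 in ES FCS, and 10 fell in EG 2i, 12 in EG 2is and 13 in ES 2i, where 2 rose. The part of feeder RNA in the results below was not tested. In such bulk samples fewer cells of a type and less RNA per cell cannot be told apart. Markers of pluripotent cells averaged 10.93 in EG 2i, 10.89 in EG 2is, 10.74 in EG FCS, 10.84 in ES 2i and 10.68 in ES FCS.

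The bases before the start site are shown first for the genes of the largest rise and the largest fall in EG 2i lines, Cox7a1 and Atp5e. They come from RefSeq on GRCm38.p6, each 250 bases long, 5′ to 3′ on the strand of the gene. Cox7a1 is on the plus strand at chr7:30183921-30184170 with 51.2% GC, and Atp5e on the minus strand at chr2:174464102-174464351 with 65.6% GC.
Cox7a1: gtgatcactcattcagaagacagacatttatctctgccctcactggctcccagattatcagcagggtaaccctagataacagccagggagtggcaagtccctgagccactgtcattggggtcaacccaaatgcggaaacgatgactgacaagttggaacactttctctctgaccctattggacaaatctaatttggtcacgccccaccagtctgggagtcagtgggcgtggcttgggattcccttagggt
Atp5e: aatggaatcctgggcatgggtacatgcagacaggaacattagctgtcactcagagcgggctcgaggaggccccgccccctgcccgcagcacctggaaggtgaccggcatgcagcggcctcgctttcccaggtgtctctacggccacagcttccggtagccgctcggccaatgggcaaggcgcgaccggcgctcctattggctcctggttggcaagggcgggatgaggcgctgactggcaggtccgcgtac

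Both windows were searched on both strands for 4 motifs of factors known to act on nuclear genes of the respiratory chain, and neither held any: GCGCATGCG (NRF1), CCGGAAGT (GABPA), AAGATGGCG (YY1) and AAGGTCA (ERR). Of the members 73 matched a promoter in the table. The NRF1 motif was found in 7 of them (9.59%), against 401 of 27025 promoters of the same length in all (1.48%). The GABPA motif was found in 3 members (4.11%, against 2.92% of all promoters), the ERR motif in 4 (5.48%, against 4.04%) and the YY1 motif in 0 (against 0.592%), and Atp5l alone held more than 1 of the 4 motifs, NRF1 and ERR. The stretches around the NRF1 motif of the 7 members follow, up to 50 bases each with the motif in capitals (where matches on both strands overlap, both), to show how members with the same match compare in the results below. They lie on GRCm38.p6 at chr15:102671060-102671109 (minus strand) for Atp5g2, chr5:108434420-108434469 (minus) for Atp5k, chr9:44920955-44920992 (minus) for Atp5l, chr5:115349091-115349140 (minus) for Cox6a1, chr17:56717682-56717731 (plus) for Ndufa11, chr2:36049339-36049367 (minus) for Ndufa8 and chr4:24897950-24897999 (plus) for Ndufaf4.
Atp5g2: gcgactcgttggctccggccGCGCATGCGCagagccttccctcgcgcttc
Atp5k: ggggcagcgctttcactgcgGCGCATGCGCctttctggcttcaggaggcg
Atp5l: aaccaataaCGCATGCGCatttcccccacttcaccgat
Cox6a1: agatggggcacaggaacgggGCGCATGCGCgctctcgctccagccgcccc
Ndufa11: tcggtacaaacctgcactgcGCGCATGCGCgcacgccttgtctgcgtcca
Ndufa8: cgcttgcgcgtcgctggagaCGCATGCGC
Ndufaf4: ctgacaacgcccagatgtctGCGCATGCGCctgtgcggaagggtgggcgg

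The study set 2i culture against serum culture in both kinds of line, and the first question was how the members compared between these media. In ES 2i lines 28 of the 89 members rose and 3 fell relative to ES FCS lines (31.6% of all genes were called), whereas in EG 2i lines 6 rose and 12 fell relative to EG FCS lines (23.9% of all genes). EG 2is lines had 15 members that rose and 6 that fell relative to the same EG FCS lines (25.6% of all genes). A call is an adjusted p under 0.05 in a limma fit of all 22 arrays with terms for group, labelled batch and labelled sex, adjusted over all 19938 genes by the Benjamini-Hochberg method. Fitted changes can therefore differ from the difference of the group means. Called changes were small except for Cox7a1, the 1 member called with a change of more than 2-fold, in both EG comparisons.

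The members' shares are set here beside those of all genes, without a test of the difference. Higher calls made up 31.5% of members and 16.6% of all genes in ES 2i against ES FCS, and lower calls 3.37% of members and 14.9% of all genes. In EG 2is against EG FCS, 16.9% of members and 12.7% of all genes were called higher, and 6.74% of members and 12.9% of all genes lower. In EG 2i against EG FCS, 6.74% of members and 11.4% of all genes were called higher, and 13.5% of members and 12.5% of all genes lower, so that the lower share was near the background. The median log2 change of the members was 0.09 in ES 2i (all genes 0.00), 0.04 in EG 2is (all genes -0.01) and -0.03 in EG 2i (all genes 0.01).

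The direction of the EG 2i result depended on how the arrays were scaled. With the arrays quantile-normalised again, 10 members rose and 10 fell in EG 2i (11.2% each, against 11.5% and 12.1% of all genes), and their median change was 0.02 (all genes 0.00). With arrays centred on their medians 4 rose and 19 fell (4.49% and 21.3%, against 9.58% and 14.8% of all genes). The median of all genes was then -0.03 and that of the members -0.06, so that the centring moved both. The SD of log2 values over all genes was 1.73 to 1.80 in EG 2i arrays and 1.76 to 1.80 in EG FCS arrays, and 1.78 to 1.81 in ES 2i arrays against 1.77 to 1.80 in ES FCS arrays. Without line 1 of EG 2i, 7 members rose and 10 fell, against 11.2% and 12.1% of all genes. Without line 1 of EG FCS, 4 rose and 8 fell in EG 2i, where 1640 and 1801 of all 19938 genes did. In EG 2is 7 rose and 5 fell without that line, where 2055 and 1918 of all genes did. The ES result had 26 higher and 4 lower calls with the arrays normalised again (29.2% and 4.49%, against 15.7% and 16.3% of all genes). With centring it had 28 and 3 (31.5% and 3.37%, against 16.9% and 14.4% of all genes).

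**Figure D1:**
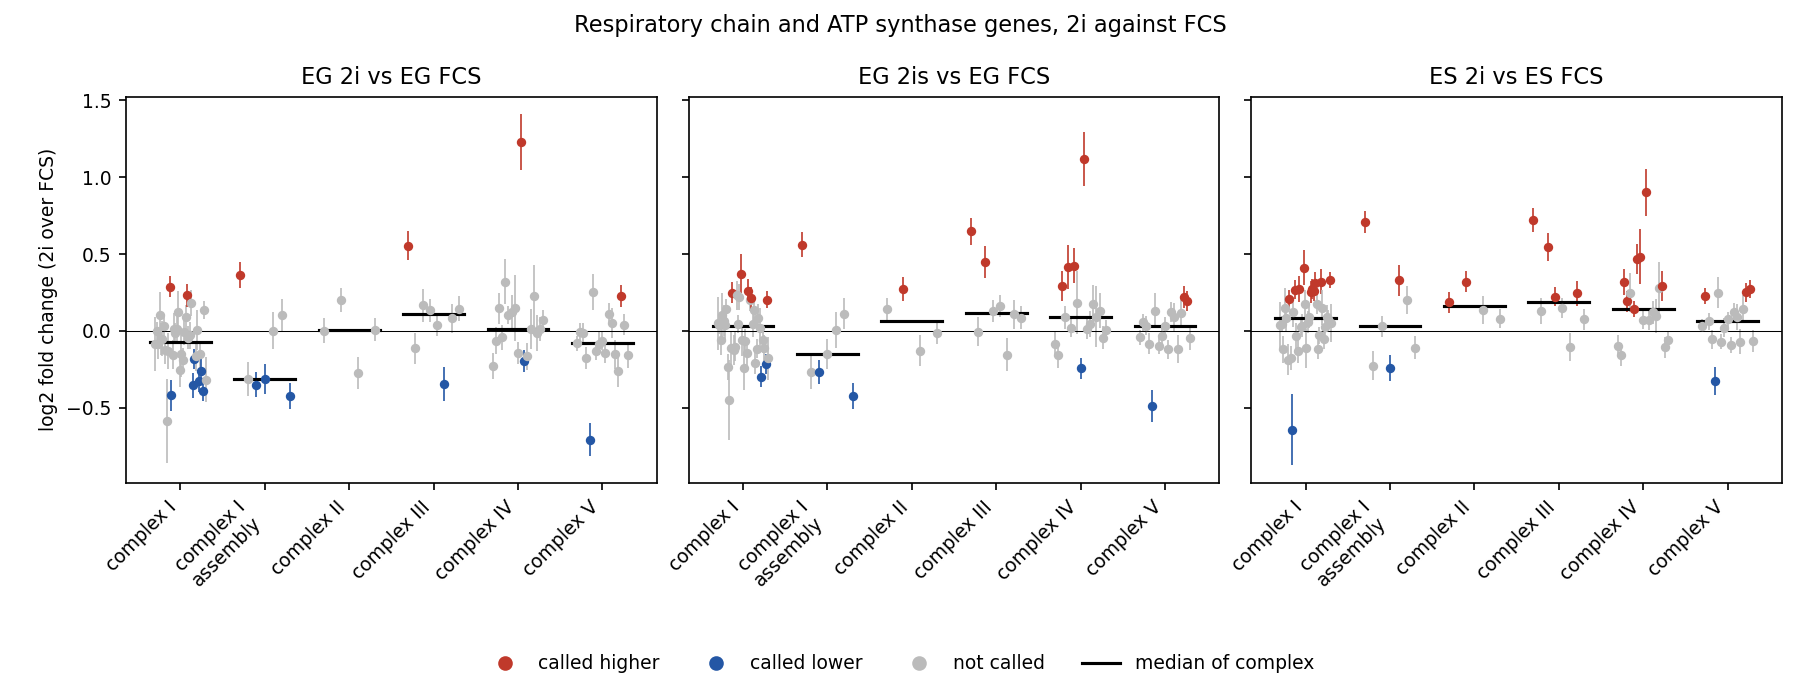
Fitted log2 fold changes (bars, standard errors) of the 89 members by complex in EG 2i against EG FCS, EG 2is against EG FCS and ES 2i against ES FCS, with called members in colour and the median of each complex as a black line. Complexes II, III and IV have medians above 0 in all 3 panels (0.11, 0.12 and 0.19 for complex III, and for complex II in EG 2i only 0.005), and the assembly factors have theirs at -0.31, -0.15 and 0.03.

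Taking each array on its own, 24 members had all 5 ES 2i values above all 5 ES FCS values and 0 had them all below, against 11.6% and 10.6% of all genes. In EG 2is, 15 members lay wholly above EG FCS and 8 wholly below (all genes 12.2% and 12.3%). In EG 2i, 5 members lay wholly above and 14 wholly below (all genes 11.4% and 12.8%). The ES calls were less frequent within batch 1, which held 2 ES lines per medium: there 6 members rose and 2 fell. These higher calls were 6.74% of members, near the 6.61% of all genes, and the lower calls 2.25% of members and 5.73% of all genes. The members' median change in batch 1 was 0.08 (all genes 0.005), and 27 of the 28 members that rose overall had a positive change. Within batch 2, with 3 lines per medium, 26 members rose and 3 fell (29.2% and 3.37%, against 16.3% and 14.3% of all genes), and all 28 changes were positive.

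Complex I accepts electrons from NADH through its FMN-binding subunit Ndufv1 and a chain of iron-sulfur clusters. In ES 2i, 10 of its 36 genes rose and 1 fell, in EG 2is 5 rose and 2 fell, and in EG 2i 2 rose and 6 fell. The median log2 changes were 0.08, 0.03 and -0.07. Higher calls made up 27.8% of complex I genes in ES 2i and 5.56% in EG 2i, and lower calls 2.78% and 16.7%. Over all genes the higher shares were 16.6% and 11.4%, and the lower shares 14.9% and 12.5%. The lower share in EG 2i was thus not far above that of all genes, and the difference was not tested. In EG 2is 12.7% of all genes were called higher, near the complex I share, and 12.9% lower, against 5.56% of complex I. The subunits that fell in EG 2i were 4 of the 6 measured core subunits, Ndufv1, Ndufs1, Ndufs3 and Ndufs8, and Ndufa7 and Ndufs6, both accessory subunits. Ndufa6 and Ndufb8, accessory subunits of the matrix and membrane arms, rose.

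Ndufv1 had log2 values of 9.57, 9.44, 9.57 and 9.65 in EG 2i lines and 9.79, 9.81, 9.75 and 9.66 in EG 2is lines, against 9.87, 9.93, 10.06 and 10.10 in EG FCS lines. All EG 2i and EG 2is values lay below all EG FCS values. Ndufv1 was 1.31-fold lower in EG 2i (log2 -0.39 ± 0.07 SE, adjusted p = 1.6e-04) and 1.16-fold lower in EG 2is (log2 -0.22 ± 0.06, adjusted p = 0.0141). The EG 2is call was lost in 3 of 19 alternatives, among them the arrays normalised again (highest adjusted p 0.0804). In ES lines its values were 9.88, 9.85, 9.98, 9.83 and 9.87 in ES 2i, against 9.77, 9.86, 9.68, 9.83 and 9.87 in ES FCS. Those groups overlapped, and the change of 0.08 ± 0.05 did not pass the test (adjusted p = 0.331).

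Ndufs1, the largest iron-sulfur subunit, averaged 9.14 ± 0.13 in EG 2i and 9.54 ± 0.06 in EG FCS (SD, n = 4 each), with no overlap, and fell by 0.36 ± 0.08 SE (log2, adjusted p = 0.00285). Its change was -0.21 in EG 2is (adjusted p = 0.0580) and -0.12 in ES 2i (adjusted p = 0.222). Ndufs8, another iron-sulfur subunit, changed by -0.26 in EG 2i (adjusted p = 0.0386), a call lost in 9 of 19 alternatives, including renormalised arrays. Ndufs7, which carries the last cluster before ubiquinone, showed -0.15 in EG 2i (adjusted p = 0.231) and 0.03 in ES 2i (adjusted p = 0.856). Ndufa7 fell by 0.42 ± 0.10 in EG 2i (adjusted p = 0.00427) without overlap.

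Among complex I genes that rose in ES 2i, Ndufv2, the core partner of Ndufv1, had 10.59, 10.56, 10.46, 10.56 and 10.49 in ES 2i, against 10.22, 10.14, 10.09, 10.26 and 10.29 in ES FCS. The groups did not overlap and the change was 0.33 ± 0.05 SE (adjusted p = 5.4e-05). It was also higher in EG 2is, by 0.20 (adjusted p = 0.0129). Ndufs4, an accessory subunit whose loss in mice is a model of Leigh syndrome, had 10.22, 10.11, 9.98, 10.06 and 10.16 in ES 2i, against 9.65, 9.88, 9.76, 9.68 and 9.96 in ES FCS. All ES 2i values lay above the ES FCS values, and the change was 0.32 ± 0.08 (adjusted p = 0.00357). The other genes that rose were Ndufa3, Ndufa6, Ndufa9, Ndufb7, Ndufb8, Ndufb9, Ndufb11 and Ndufc1, by 0.21 to 0.41.

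Ndufa6 was called higher in all 3 comparisons, by 0.29 ± 0.07 in EG 2i (adjusted p = 0.00503), 0.25 ± 0.07 in EG 2is (adjusted p = 0.0101) and 0.27 ± 0.06 in ES 2i (adjusted p = 0.00155). Ndufb8 rose by 0.23 in EG 2i (adjusted p = 0.0338), a call lost in 7 of 19 alternatives, among them the centred arrays, and by 0.27 in ES 2i (adjusted p = 0.00309). Ndufa4, named for complex I but since assigned to complex IV, showed -0.13, -0.23 and -0.18 in EG 2i, EG 2is and ES 2i, none of which passed the test. Its paralogue Ndufa4l2, known as a hypoxia-inducible gene, averaged 4.77 ± 0.37 in ES 2i, below the background level, and 5.41 ± 0.43 in ES FCS (SD, n = 5 each). Its fall of 0.64 ± 0.23 SE in ES 2i (adjusted p = 0.0402) was lost in 9 of 22 alternatives, and the groups overlapped. The change was -1.47 within batch 1 (adjusted p = 0.00691) and -0.09 within batch 2 (adjusted p = 0.327).

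The complex I assembly factors divided. Ndufaf1, which helps to join the membrane arm intermediates, rose in all 3 comparisons. Its values were 8.27, 8.27, 8.0 and 7.96 in EG 2i and 8.10, 8.31, 8.39 and 8.37 in EG 2is, against 7.61, 7.76, 7.72 and 7.71 in EG FCS. In ES lines they were 8.54, 8.27, 8.27, 8.36 and 8.24 in ES 2i, against 7.88, 7.51, 7.63, 7.56 and 7.58 in ES FCS. No 2i or 2is line overlapped the FCS lines of its kind. Ndufaf1 was 1.29-fold higher in EG 2i (adjusted p = 0.00382), 1.48-fold in EG 2is (adjusted p = 4.3e-05) and 1.63-fold in ES 2i (adjusted p = 5.0e-07).

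Ndufaf7, a methyltransferase needed for complex I assembly, fell by 0.42 ± 0.09 SE in EG 2i (adjusted p = 0.00128) and by 0.42 ± 0.08 in EG 2is (adjusted p = 8.3e-04), both without overlap. Ndufaf3 and Ndufaf4, which act together early in assembly, fell by 0.35 (adjusted p = 0.00374) and 0.31 (adjusted p = 0.0253) in EG 2i. Ndufaf3 also fell in EG 2is, and Ndufaf4 in ES 2i by 0.24 (adjusted p = 0.0346), a call lost in 9 of 23 alternatives. Ndufaf5 rose in ES 2i by 0.33 ± 0.10 (adjusted p = 0.0178).

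Complex II links the tricarboxylic acid cycle to the chain. None of its 4 genes was called in EG 2i (0 of 4 by limma, 2 at an unadjusted p under 0.05), where 23.9% of all genes were called. At an unadjusted p under 0.05, 6793 of all 19938 genes passed there. Sdhb, the iron-sulfur subunit, had 8.83, 8.74, 8.74, 8.71 and 8.77 in ES 2i, against 8.42, 8.58, 8.15, 8.47 and 8.57 in ES FCS. The groups did not overlap, and Sdhb rose by 0.32 ± 0.07 SE (adjusted p = 8.7e-04). It also rose in EG 2is by 0.27 ± 0.08 (adjusted p = 0.0106), where leaving out line 1 of EG FCS ended the call (adjusted p = 0.0618), and its change in EG 2i was 0.20 (adjusted p = 0.0728). Sdha, the flavoprotein that oxidises succinate, rose by 0.19 in ES 2i (adjusted p = 0.0400), a call lost in 11 of 23 alternatives. The membrane anchors Sdhc and Sdhd changed by 0.14 and 0.08 in ES 2i and by -0.28 and 0.01 in EG 2i, with no call.

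Complex III had 4 of 8 genes higher in ES 2i, 2 of 8 in EG 2is and 1 of 8 in EG 2i, and 1 of 8 lower in EG 2i. The higher calls were 50%, 25% and 12.5%, against 16.6%, 12.7% and 11.4% of all genes. The lower calls were 0%, 0% and 12.5%, against 14.9%, 12.9% and 12.5% of all genes. In EG 2i complex III was therefore near the share of all genes in both directions. Uqcr10, one of its small subunits, had 8.33, 8.53, 8.33 and 8.61 in EG 2i and 8.39, 8.45, 8.80 and 8.54 in EG 2is, against 7.89, 7.92, 7.87 and 7.91 in EG FCS. ES 2i lines had 8.61, 8.64, 8.46, 8.76 and 8.60, against 7.98, 7.74, 7.87, 7.96 and 7.91 in ES FCS lines. All 2i and 2is values exceeded all FCS values. Uqcr10 was 1.47-fold higher in EG 2i (log2 0.56 ± 0.09 SE, adjusted p = 2.0e-04), 1.57-fold in EG 2is (adjusted p = 2.2e-05) and 1.65-fold in ES 2i (adjusted p = 1.0e-06), and no alternative ended any of these calls.

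Uqcrb, which binds ubiquinone, had 11.57, 11.59, 11.08, 11.48 and 11.39 in ES 2i, against 10.91, 10.84, 10.79, 10.93 and 10.91 in ES FCS. The groups did not overlap, and Uqcrb rose by 0.54 ± 0.09 (adjusted p = 1.2e-04). It rose by 0.45 in EG 2is (adjusted p = 0.00289) and showed 0.17 in EG 2i (adjusted p = 0.30). Its probe set lay among neighbours from chromosome 14 rather than its own chromosome 13, as judged from the order of probe set numbers, and the probe set placed on chromosome 13 gave 0.65 in ES 2i (adjusted p = 2.6e-04). Uqcrc1 and Uqcrc2 are the large core subunits: Uqcrc1 rose in ES 2i by 0.22 (adjusted p = 0.0102) and Uqcrc2 showed 0.15 (adjusted p = 0.0824). Uqcrfs1, the Rieske iron-sulfur protein, fell by 0.34 ± 0.11 in EG 2i (adjusted p = 0.0264), a call lost in 6 of 19 alternatives.

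**Figure D2:**
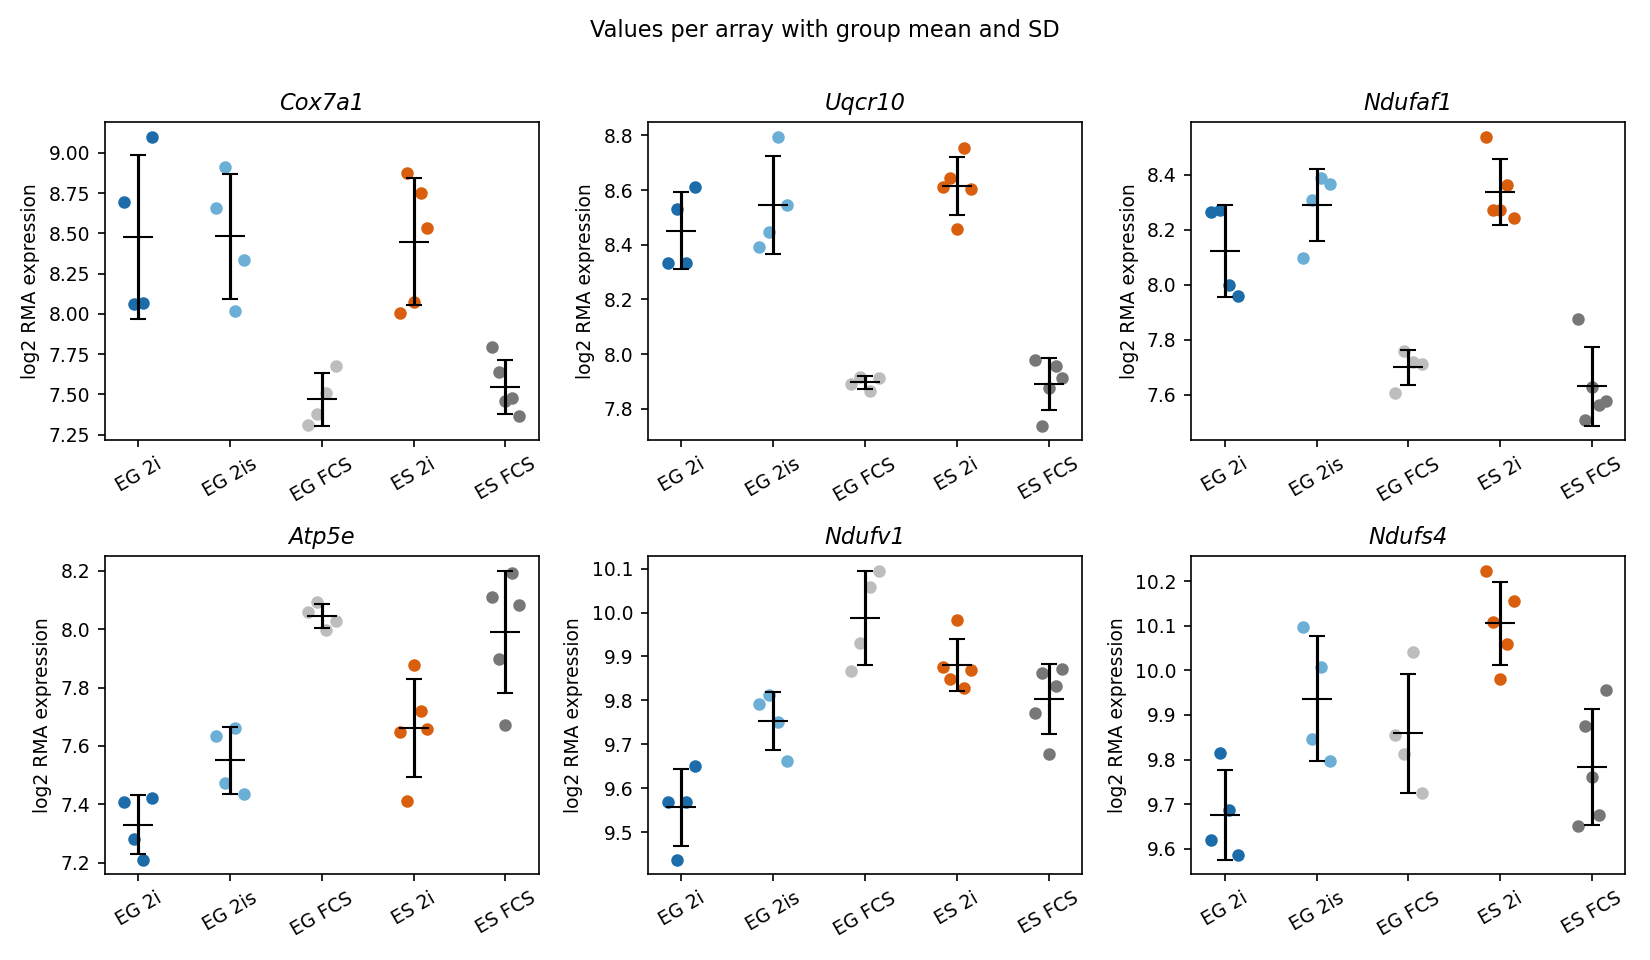
Log2 RMA values of 6 members on each array, with group means and SD (EG groups n = 4, ES groups n = 5). Uqcr10 and Ndufaf1 lie above both FCS groups in every 2i and 2is line, Atp5e averages 7.33 in EG 2i against 8.04 in EG FCS, and Ndufv1 is lower in EG 2i (9.56) than in EG FCS (9.99) but not in ES 2i (9.88, against 9.80 in ES FCS).

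Complex IV had 7 of 17 genes higher and 0 lower in ES 2i, 4 higher and 1 lower in EG 2is, and 1 higher and 1 lower in EG 2i. The higher calls were 41.2%, 23.5% and 5.88% of its genes, against 16.6%, 12.7% and 11.4% of all genes. The lower calls were 0%, 5.88% and 5.88%, against 14.9%, 12.9% and 12.5% of all genes. Cox7a1, the isoform of subunit VIIa known from heart and skeletal muscle, had the largest change of any member in each of these 3 comparisons. It had 8.69, 8.06, 8.07 and 9.10 in EG 2i and 8.66, 8.92, 8.02 and 8.33 in EG 2is, against 7.31, 7.38, 7.51 and 7.68 in EG FCS. ES 2i lines had 8.0, 8.88, 8.07, 8.75 and 8.53, against 7.79, 7.64, 7.46, 7.48 and 7.37 in ES FCS lines. All 2i and 2is values exceeded all FCS values, and the 2i lines spread more (SD 0.51 in EG 2i and 0.16 in EG FCS). With sex as a term Cox7a1 was 2.34-fold higher in EG 2i (log2 1.23 ± 0.18 SE, adjusted p = 6.2e-05), 2.18-fold in EG 2is (adjusted p = 8.5e-05) and 1.87-fold in ES 2i (log2 0.90 ± 0.16, adjusted p = 1.5e-04). Within the batch 1 ES lines the adjusted p was 0.0781.

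The other isoform of that subunit, Cox7a2, did not share this direction in EG 2i. It had 9.25, 9.31, 9.24 and 9.31 in EG 2i, against 9.49, 9.42, 9.42 and 9.64 in EG FCS, without overlap. Its fall of 0.20 ± 0.07 (adjusted p = 0.0459) was lost in 11 of 19 alternatives, including renormalised arrays, and its changes in EG 2is (0.02) and ES 2i (0.07) did not pass. Cox7a2l, a related protein known to join complexes III and IV into supercomplexes, showed -0.16 in EG 2i and 0.12 in ES 2i, with no call.

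Cox6b1, which faces the intermembrane space, rose in ES 2i by 0.47 ± 0.10 (10.13 ± 0.10 against 9.66 ± 0.10 in ES FCS, SD, n = 5 each, adjusted p = 0.00101) and in EG 2is by 0.43 ± 0.11 (adjusted p = 0.00747). Its testis isoform Cox6b2 had 7.68, 8.25, 8.91, 7.89 and 8.03 in ES 2i, against 8.01, 8.02, 7.42, 7.47 and 7.42 in ES FCS. These groups overlapped. The change of 0.48 ± 0.18 (adjusted p = 0.0488) was lost in 12 of 23 alternatives and was -0.05 within batch 1.

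Cox5a, a subunit on the matrix side, rose by 0.32 in ES 2i (adjusted p = 0.00650) and by 0.29 in EG 2is (adjusted p = 0.0294), where the call was lost in 7 of 19 alternatives, 5 of them without 1 line. Cox8a and Cox5b rose in ES 2i by 0.29 (adjusted p = 0.0315) and 0.19 (adjusted p = 0.0346), calls lost in 7 and 12 of 23 alternatives. Cox4i1, the common isoform of the largest nuclear subunit, and Cox4i2, its hypoxia-linked isoform, showed -0.23 and -0.06 in EG 2i and -0.10 and -0.15 in ES 2i, with no call. Of the subunit VIa isoforms, Cox6a1 rose by 0.41 in EG 2is (adjusted p = 0.0368), a call lost in 10 of 19 alternatives, and showed 0.32 in EG 2i (adjusted p = 0.129) and 0.25 in ES 2i (adjusted p = 0.15). The muscle isoform Cox6a2 rose by 0.14 in ES 2i (adjusted p = 0.0366), to a mean of 5.24, close to background, and this call was lost in 11 of 23 alternatives, both single batches among them. The testis isoform Cox8c and the muscle isoform Cox8b lay near or below background and showed changes of -0.06 and -0.11 in ES 2i, with no call. Cox6c fell by 0.24 in EG 2is (adjusted p = 0.0114), and by 0.22 with the probe set placed on its own chromosome (adjusted p = 0.0297).

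Complex V had 3 of 17 genes higher and 1 lower in ES 2i, 2 higher and 1 lower in EG 2is, and 1 higher and 1 lower in EG 2i. The higher calls were 17.6%, 11.8% and 5.88% of its genes, against 16.6%, 12.7% and 11.4% of all genes. In ES 2i and EG 2is this was near the share of all genes. The lower calls were 5.88% each, against 14.9%, 12.9% and 12.5%. Atp5e, the epsilon subunit of the central stalk, fell in all 3 comparisons. It had 7.41, 7.28, 7.21 and 7.42 in EG 2i and 7.64, 7.47, 7.66 and 7.44 in EG 2is, against 8.06, 8.09, 8.0 and 8.03 in EG FCS. No EG 2i or EG 2is value reached the EG FCS range. In ES lines it had 7.65, 7.41, 7.88, 7.72 and 7.66 in ES 2i, against 8.11, 7.90, 7.67, 8.19 and 8.08 in ES FCS, and line 3 of ES FCS lay within the ES 2i range.

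Atp5e was 1.63-fold lower in EG 2i (log2 -0.71 ± 0.11 SE, adjusted p = 7.6e-05), 1.41-fold lower in EG 2is (adjusted p = 0.00143) and 1.26-fold lower in ES 2i (adjusted p = 0.00884). The ES call was lost in 3 of 23 alternatives, among them batch 2 alone. Atp5b, the catalytic beta subunit, averaged 12.10 ± 0.06 in ES 2i and 11.87 ± 0.02 in ES FCS (SD, n = 5 each), without overlap, and rose by 0.23 ± 0.05 SE (adjusted p = 0.00145). Its change in EG 2i was -0.01 (adjusted p = 0.962). Atp5a1, the alpha subunit, showed -0.08 in EG 2i and 0.03 in ES 2i, with no call.

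The 3 genes that encode the c-ring subunit, Atp5g1, Atp5g2 and Atp5g3, showed 0.25, -0.13 and -0.08 in EG 2i and 0.25, -0.07 and 0.02 in ES 2i, with no call. Atp5mpl, a small membrane subunit, rose by 0.23 in EG 2i (adjusted p = 0.0256), 0.22 in EG 2is (adjusted p = 0.0233) and 0.25 in ES 2i (adjusted p = 0.00345). The EG 2i call was lost in 6 of 19 alternatives. Atp5o, which joins the peripheral stalk to the catalytic head, rose by 0.27 in ES 2i (adjusted p = 8.9e-04) and by 0.19 in EG 2is (adjusted p = 0.0330).

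The members with the NRF1 motif did not move as a group. Ndufaf4 fell in EG 2i and ES 2i as given above, and Cox6a1 rose in EG 2is. In EG 2i, EG 2is and ES 2i, Atp5k showed 0.05, 0.09 and 0.09, Atp5l -0.15, -0.12 and -0.07, Ndufa8 -0.15, -0.10 and -0.13, and Ndufa11 -0.08, -0.06 and -0.12, and Atp5g2 is given above, all without a call. The probe sets of Atp5g2 and Atp5l lay among neighbours from other chromosomes than those of the promoters shown. Those placed on the genes' own chromosomes gave -0.04, -0.04 and -0.15 for Atp5g2 and -0.15, -0.10 and -0.10 for Atp5l, also without a call.

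Averaged over the genes of a complex, the levels on each array differed little. The mean over all 89 members was 8.89 ± 0.06 in EG 2i and 8.97 ± 0.05 in EG 2is, against 8.93 ± 0.03 in EG FCS (SD, n = 4 each), and 9.01 ± 0.02 in ES 2i against 8.90 ± 0.03 in ES FCS (SD, n = 5 each). ES 2i lines ranged from 8.99 to 9.05 and ES FCS lines from 8.84 to 8.93, without overlap. EG 2i lines ranged from 8.82 to 8.94 and EG FCS lines from 8.91 to 8.97, with overlap. The complex III mean was 9.27 ± 0.09 in EG 2i and 9.37 ± 0.04 in EG 2is, against 9.19 ± 0.04 in EG FCS, and 9.38 ± 0.03 in ES 2i against 9.14 ± 0.05 in ES FCS. For complex I it was 8.68 ± 0.05 in EG 2i, 8.77 ± 0.05 in EG 2is and 8.77 ± 0.03 in EG FCS, and 8.82 ± 0.03 in ES 2i and 8.74 ± 0.03 in ES FCS.

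**Figure D3:**
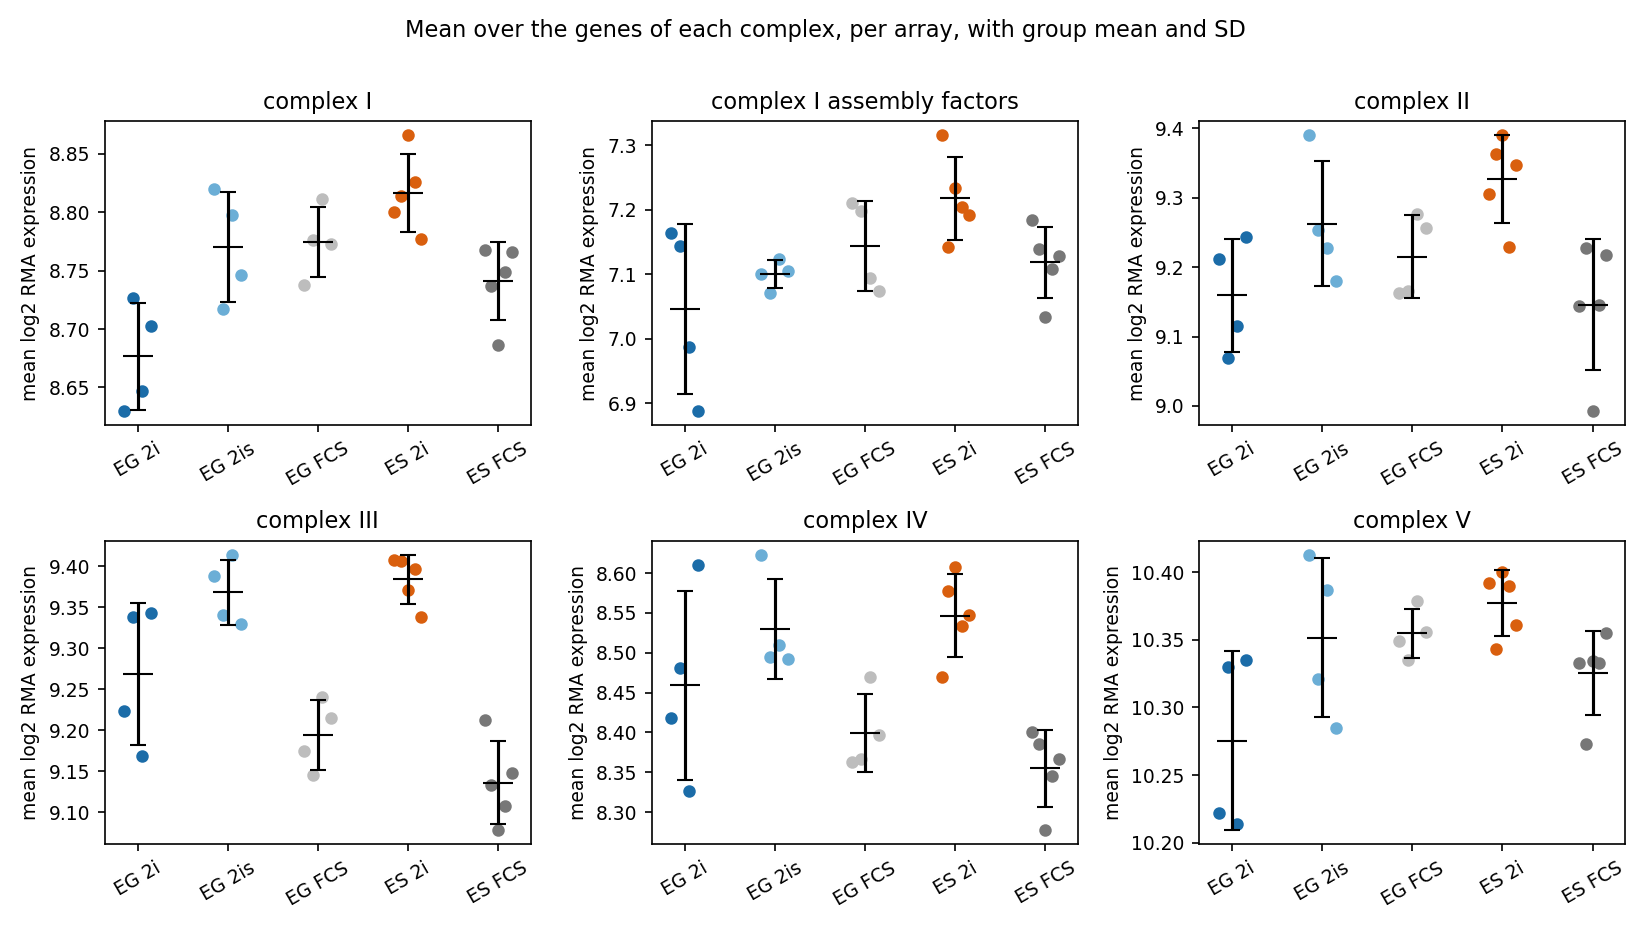
Mean log2 RMA value over the genes of each complex on each array, with group means and SD (EG groups n = 4, ES groups n = 5, axes not starting at 0). The ES 2i lines lie above the ES FCS lines for complexes I, II, III and IV without overlap (for complex II narrowly, the lowest and highest being 9.229 and 9.228), and the EG 2i lines lie below the EG FCS lines for complex I.

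The design also allowed EG and ES lines to be compared within a medium. In FCS medium EG and ES lines had 0 members called by limma (3 at an unadjusted p under 0.05), with 0.01% of all genes called. EG 2is against ES 2i also gave 0 (4 at an unadjusted p under 0.05, 0.0451% of all genes called), and EG 2i against EG 2is gave 0 (15 at an unadjusted p under 0.05, 0% of all genes called). At an unadjusted p under 0.05, 979, 1872 and 2116 of all 19938 genes passed in these comparisons, in order. In EG 2i against ES 2i, 8 of 89 members fell and 0 rose, against 2.52% and 1.20% of all genes (3.72% called in all), and the median change of the members was -0.13 (all genes 0.00). With the arrays normalised again 2 were called, both lower (2.25%, against 1.56% of all genes), and the median was -0.08. Only batch 1 held EG lines, and with its arrays alone 0 were called. Of all 19938 genes 69 were then called higher and 132 lower. The batch term rests on ES lines alone, so batch and line differences cannot be told apart in these comparisons.

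The 8 members lower in EG 2i than in ES 2i were Uqcrb, Ndufs4, Atp5md, Ndufb5, Cox7a2, Ndufaf7, Ndufv1 and Atp5o. Ndufs4 had 9.62, 9.81, 9.69 and 9.59 in EG 2i, against 10.22, 10.11, 9.98, 10.06 and 10.16 in ES 2i. The groups did not overlap, and the difference was -0.44 ± 0.10 SE (adjusted p = 0.0175). Uqcrb had 10.67, 11.20, 11.11 and 11.16 in EG 2i, where line 1 was lowest, and overlapped the ES 2i lines given above (-0.45 ± 0.11, adjusted p = 0.0340). Atp5md, a small subunit linked to ATP synthase dimers, averaged 10.67 ± 0.21 in EG 2i (SD, n = 4) and 11.10 ± 0.15 in ES 2i (SD, n = 5) and differed by -0.42 ± 0.11 SE (adjusted p = 0.0413). The Atp5md probe set lay among neighbours from another chromosome, and the one placed on its own gave -0.41 (adjusted p = 0.0730), as Uqcrb gave -0.49 (adjusted p = 0.0683). The calls of Ndufs4, Uqcrb and Atp5md were lost in 4, 7 and 11 of 21 alternatives. Without line 1 of EG 2i, 6 members were called lower, against 2.51% of all genes. Leaving out line 3 of EG 2i gave 3, ES 2i line 1 gave 2, and ES 2i lines 2 or 4 gave 5 each. Of all 19938 genes 502 were called lower with every line in, and 206, 244, 315 and 405 in these fits.

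The response to 2i was then compared between the kinds of line as the EG 2i change minus the ES 2i change. Over the 89 members the changes correlated at 0.79 (Pearson, across genes, which are not independent replicates, and 0.80 over all genes). The change in EG 2i was below that in ES 2i for 76 of 89 members (85.4%), against 51.2% of all genes. The median of the difference was -0.14 (all genes -0.01), and -0.08 after renormalising the arrays. Ndufv1 alone passed the test of the difference, at -0.47 ± 0.09 SE (adjusted p = 0.0109), where 1.44% of all genes were called, 0.873% lower and 0.567% higher. That call was lost in 3 of 30 alternatives, renormalised arrays, the replicate block and batch 1 alone (highest adjusted p 0.255). Without line 1 of EG 2i, 75 members had a change below that in ES 2i, with a median difference of -0.13, and Ndufv1 differed by -0.48 (adjusted p = 0.0139). Ndufs4 had a similar difference of -0.49 ± 0.12 (adjusted p = 0.0512). Within EG lines, 18 of 89 members were higher in EG 2i than in EG 2is (51.7% of all genes), with a median of -0.08 (all genes 0.005). In EG 2is against ES 2i 27 of 89 were higher (48.4% of all genes), with a median of -0.06 (all genes -0.005). Whether the shift belongs to EG lines or to the EG 2i group was not tested.

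Members called higher in both EG 2i and ES 2i were Atp5mpl, Cox7a1, Ndufa6, Ndufaf1, Ndufb8 and Uqcr10, and those called lower in both were Atp5e and Ndufaf4. None was called in opposite directions (0 of 89). All of these except Ndufb8 and Ndufaf4 were also called in EG 2is, which shares its FCS lines with EG 2i. In none of the 3 culture comparisons was a call made for 46 members. Of all genes 23.9% were called in EG 2i and 31.6% in ES 2i, and the changes correlated at 0.80 over all genes. The shares of all genes called in both, in opposite directions or in none are not given here. These counts are therefore not read as particular to the members.

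**Figure D4:**
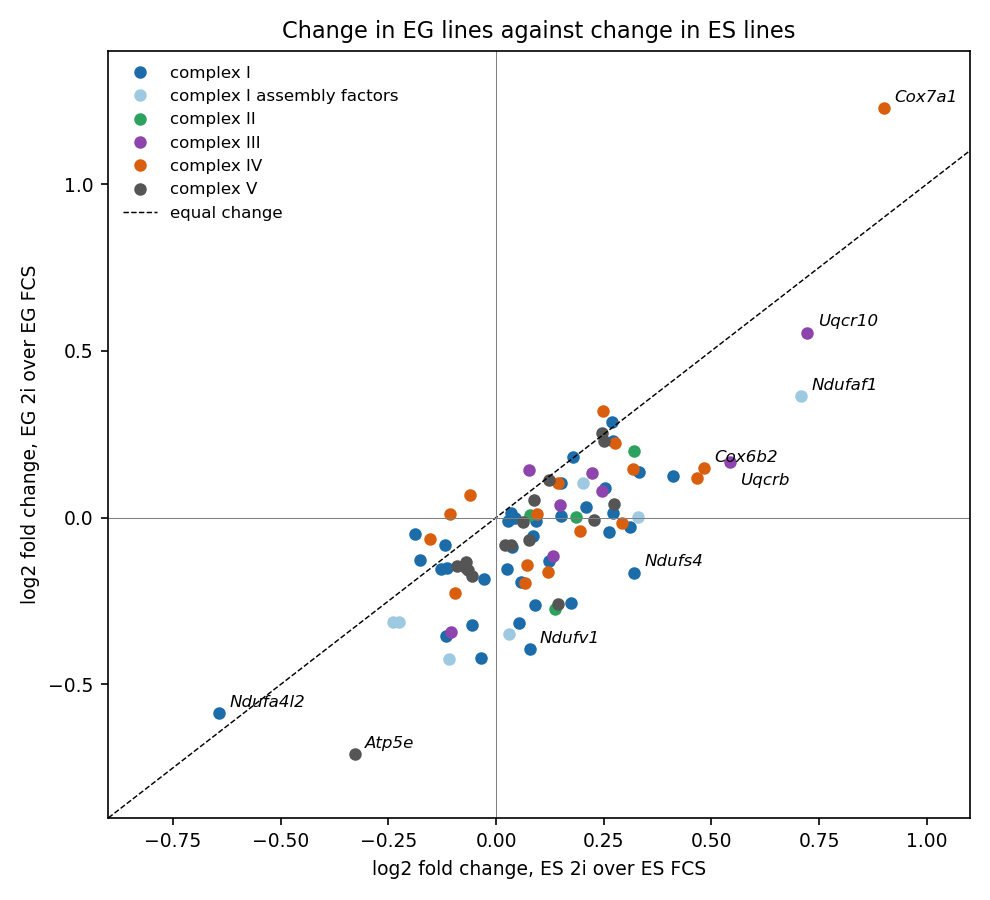
Log2 fold change in EG 2i against EG FCS (vertical) plotted on that in ES 2i against ES FCS (horizontal) for 89 members, by complex, with the line of equal change. Of these 76 lie below the line, and Cox7a1 (1.23 and 0.90) lies above it.

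The lines were of both sexes, and members were compared between 10 female and 12 male lines in the same fit. In female lines 2 members rose and 3 fell, with 3.62% of all genes called, 2.31% higher and 1.31% lower. Those that rose are on the X chromosome, which carries 3 members: Ndufa1 and Ndufb11, accessory subunits of the membrane arm of complex I, and Cox7b of complex IV. Ndufa1 was 1.51-fold higher (log2 0.59 ± 0.11 SE, adjusted p = 0.00697). Ndufb11 was 1.24-fold higher (0.31 ± 0.08, adjusted p = 0.0406), and Cox7b showed 0.18 ± 0.08 (adjusted p = 0.198). The Cox7b probe set lay among neighbours from chromosome 1, and the one placed on the X chromosome gave 0.23 (adjusted p = 0.0656). Without line 1 of EG 2i the values of Ndufa1, Ndufb11 and Cox7b were 0.63 (adjusted p = 3.6e-04), 0.34 (adjusted p = 0.00479) and 0.21 (adjusted p = 0.0469). With line 1 of EG FCS left out they were 0.69 (adjusted p = 0.00198), 0.36 (adjusted p = 0.0211) and 0.21 (adjusted p = 0.166).

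In 2i and 2is medium the lowest, median and highest Ndufa1 values were 7.25, 8.03 and 8.21 in 7 female lines, against 7.06, 7.18 and 7.41 in 6 male lines. In FCS they were 7.50, 7.72 and 7.83 in 3 female lines, against 7.14, 7.25 and 7.63 in 6 male lines. Both pairs overlapped, and in 2i the female line inside the male range was line 1 of EG 2i. The sex difference fitted within 2i lines was 0.71 for Ndufa1 (adjusted p = 0.00558) and 0.41 for Ndufb11 (adjusted p = 0.0230), and without line 1 of EG 2i it was 0.78 (adjusted p = 9.9e-05) and 0.46 (adjusted p = 7.5e-04). Within FCS lines it was 0.41 (adjusted p = 0.930) and 0.16 (adjusted p = 0.960), and without line 1 of EG FCS it was 0.62 (adjusted p = 0.471) and 0.24 (adjusted p = 0.755). Within FCS lines 0 members were called, and of all 19938 genes 3 were called higher and 2 lower. The difference between the media was not tested.

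Cox7a1, which is autosomal, was lower in female lines by 0.44 ± 0.11 SE (adjusted p = 0.0369). Its lowest, median and highest values in 2i and 2is were 8.0, 8.07 and 8.69 in 7 female lines, against 8.53, 8.81 and 9.10 in 6 male lines, and 8.69 was line 1 of EG 2i. In FCS they were 7.31, 7.46 and 7.79 in 3 female lines, against 7.37, 7.49 and 7.68 in 6 male lines. The sex difference was -0.71 within 2i lines (adjusted p = 0.00138) and -0.02 within FCS lines (adjusted p = 0.994). The difference of Cox7a1 without line 1 of EG 2i was -0.46 over all lines (adjusted p = 0.0174) and -0.75 within 2i lines (adjusted p = 3.7e-05). Ndufv3 and Cox6a2 differed by -0.33 (adjusted p = 0.0466) and -0.14 (adjusted p = 0.0368) between female and male lines, and by -0.34 (adjusted p = 0.0335) and -0.15 (adjusted p = 0.0295) without that line. All 3 stayed called without line 1 of EG FCS (adjusted p = 0.0328 for Cox7a1, 0.0478 for Ndufv3 and 0.0227 for Cox6a2). These sex results rested on few lines: the calls of Ndufb11, Cox7a1, Ndufv3 and Cox6a2 were lost in 18, 15, 20 and 15 of 36 alternatives, and that of Ndufa1 in 3. With batch 1 alone no member was called for sex (0 of 89, Ndufa1 adjusted p = 0.114), and of all 19938 genes 19 were called higher and 6 lower.

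**Figure D5:**
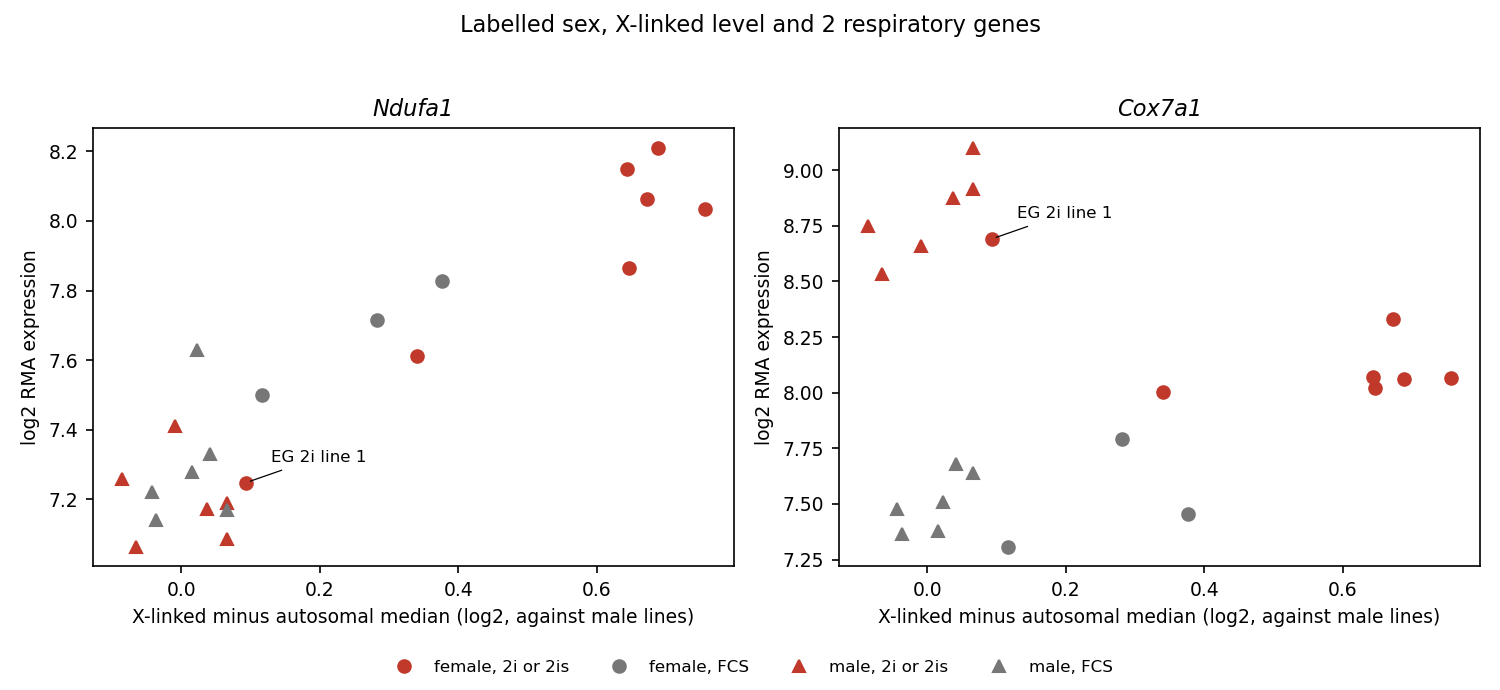
Log2 RMA values of Ndufa1 and Cox7a1 on each array against the X-linked minus autosomal median (log2, relative to male lines), by labelled sex and medium. Line 1 of EG 2i, labelled female, lies at 0.09 beside the male lines in both panels, and line 1 of EG FCS at 0.12.

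Other genes of mitochondrial energy metabolism were taken from lists, whose counts are to be read against all genes: 11.4% were called higher and 12.5% lower in EG 2i, 12.7% and 12.9% in EG 2is, and 16.6% and 14.9% in ES 2i. Of 29 assembly factors other than Ndufaf genes, 3 rose and 6 fell in EG 2i, 2 rose and 6 fell in EG 2is, and 6 rose and 2 fell in ES 2i. In EG 2i that was 10.3% higher, near the share of all genes, and 20.7% lower, and in ES 2i 20.7% higher and 6.90% lower. Atpaf1, which assembles the head of ATP synthase, rose by 0.52 in EG 2i (adjusted p = 8.2e-05) and 0.65 in ES 2i (adjusted p = 5.4e-07). Cox19, a copper-handling factor of complex IV, rose by 0.41 and 0.46 (adjusted p = 5.0e-04 and 1.5e-05). Ecsit, a complex I assembly factor, fell by 0.77 and 0.55 (adjusted p = 1.5e-04 and 4.4e-04).

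Of 13 electron carrier genes, 5 rose in ES 2i, 2 in EG 2is and 0 in EG 2i, and 0 fell. Coq3, which makes ubiquinone, and Etfa and Etfb, which deliver electrons from fatty acid oxidation, rose in ES 2i by 0.76, 0.50 and 0.57 (adjusted p = 4.7e-05, 7.8e-04 and 0.00167). Of 12 genes of the tricarboxylic acid cycle 1 rose and 1 fell in EG 2i and in EG 2is, and 2 rose and 1 fell in ES 2i. Idh3b, a subunit of isocitrate dehydrogenase, rose by 0.28 in EG 2i (adjusted p = 0.00847) and 0.47 in ES 2i (adjusted p = 1.2e-05).

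Of 11 genes that govern the entry of pyruvate into mitochondria, 2 rose and 3 fell in EG 2i and in EG 2is, and 4 rose and 3 fell in ES 2i. Their median log2 changes were -0.01, 0.11 and 0.09. Pdk1, a kinase that inactivates pyruvate dehydrogenase, fell by 2.80 ± 0.25 SE in EG 2i (log2, adjusted p = 2.2e-07) and fell by 2.29 ± 0.21 in ES 2i (adjusted p = 1.4e-07). Of its opposing phosphatases, Pdp2 rose by 0.94 (adjusted p = 0.00131) and 1.29 (adjusted p = 6.4e-06), and Pdp1 fell by 0.52 (adjusted p = 0.00555) and 1.03 (adjusted p = 7.7e-07).

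Of 16 glycolysis genes, 1 rose and 6 fell in EG 2i, 1 rose and 5 fell in EG 2is, and 3 rose and 7 fell in ES 2i. The glucose transporter Slc2a1 fell by 0.97 in EG 2i (adjusted p = 9.1e-04) and 0.86 in ES 2i (adjusted p = 4.0e-04). Of the phosphofructokinases, Pfkl fell by 1.25 in EG 2i (adjusted p = 0.00164) and 1.28 in ES 2i (adjusted p = 1.9e-04), and Pfkp rose by 1.45 in EG 2i (adjusted p = 3.4e-06). The lactate exporter Slc16a3 fell by 1.55 in ES 2i (adjusted p = 2.4e-04).

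Of 15 regulators of mitochondrial biogenesis, 2 rose and 4 fell in EG 2i, 1 rose and 3 fell in EG 2is, and 1 rose and 3 fell in ES 2i. Tfb2m, a factor of mitochondrial transcription, fell by 0.49 in EG 2i (adjusted p = 3.6e-04) and 0.51 in ES 2i (adjusted p = 2.5e-05). Yy1, whose motif was searched for above, fell by 0.36 (adjusted p = 8.6e-04) and 0.26 (adjusted p = 0.00210). Of 77 genes of the mitochondrial ribosome, 2 rose and 17 fell in EG 2i, 3 rose and 18 fell in EG 2is, and 4 rose and 12 fell in ES 2i. The lower calls were 22.1%, 23.4% and 15.6% of these genes and the higher calls 2.60%, 3.90% and 5.19%. The median log2 change of these ribosomal genes was -0.13, -0.13 and -0.07.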

How the data were processed

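The authors deposited a log2 RMA value for each probe set on each array. Tools named in the submitters' processing notes are RMA, limma and Affymetrix Expression Console, whose versions are not given in the sources used here. In RMA, background is corrected, arrays are quantile-normalized and probes are summarized, and any batch adjustment is not stated. Of 28853 probe sets 21789 were listed with 1 gene symbol, 1621 with several and 5443 with none. Names and chromosomes came from a RefSeq gene table of GRCm38.p6. Of several probe sets, the one highest on average stood for a gene. Genes were tested with limma 3.58.1 in R 4.3.3 (group, batch and sex terms, Benjamini-Hochberg adjustment over 19938 genes, no filter), checked on simulated data. The number of arrays limits the precision. Members, lists and alternatives were chosen with earlier results of these data known. Named are the 6 largest changes each way of EG 2i and ES 2i, the 3 largest of other comparisons, core subunits, isoforms and X-linked members, members at the ends of the range of signal, and up to 3 genes per list. Other called members were named after their values were seen. Same-numbered samples of different groups did not deviate together throughout (correlations from -0.558 to 0.317), so numbers were not taken as pairs.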

Additional observations from a re-analysis of the deposited data

Results flagged for a closer look

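In 290 checks of 51 named members and the complex means, 12 groups had 1 line far from the others of its group, and chance gives about 1 in 20 groups. In complex I, Ndufs7 was 10.94 in line 3 of ES 2i (the others 10.53 to 10.60) and Ndufa4 was 8.90 in line 4 of EG FCS (the others 9.09 to 9.12). In complexes II and III, Sdhd was 8.34 in line 2 of EG 2is (the others 8.59 to 8.62), and Uqcrfs1 was 7.48 in line 2 of EG 2i (the others 7.17 to 7.20) and 7.71 in line 3 of ES 2i (the others 7.28 to 7.37). In complex IV, Cox7a2l was 8.31 in line 3 of EG 2is (the others 8.41), Cox7a2 was 9.71 and Cox8a 9.33 in line 1 of ES FCS (the others 9.50 to 9.54 and 9.66 to 9.73), and Cox6a2 was 5.25 in line 3 of EG FCS (the others 5.16). In complex V, Atp5b was 12.05 in line 4 of EG FCS (the others 11.97). The mean over complex IV genes was 8.62 in line 1 of EG 2is (the others 8.49 to 8.51), and the mean over complex V genes was 10.27 in line 2 of ES FCS (the others 10.33 to 10.36). Ndufv1 was the 1 member whose EG 2i and ES 2i changes differed in the limma test, at -0.47 on the log2 scale.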

How the results depend on the processing

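The number of members called changed with these settings, as did the number of all genes called, and the causes were not tested. EG 2is against EG FCS fell to 12 of 21 with its own groups alone and 12 with a replicate block, and ES 2i against ES FCS to 8 of 31 with batch 1 alone (fewer samples). Over all 19938 genes EG 2is had 2542 higher and 2566 lower calls in the main fit. It had 2404 and 2246 with its own groups, and 2422 and 2331 with the block. ES 2i had 3319 and 2979 in the main fit, and 1317 and 1143 with batch 1. EG 2i against ES 2i, with 8 calls, gave 2 with renormalised arrays, 13 with no batch term, 0 with its own groups alone, 4 with the replicate block and 0 with batch 1. All of these calls were lower. Of all genes 502 were called lower in the main fit, and 312, 1049, 9, 321 and 132 in these settings. The EG minus ES response, with 1 call, gave 0 with renormalised arrays, the replicate block or batch 1, and 2 with centred arrays, with no batch term, with no sex term, with genes of mean under 5 left out, with the mean of all probe sets, with an intensity trend and robust prior, or with its own groups alone. These calls were lower too. Of all genes 174 were called lower in the main fit, and 102, 47 and 0 in the settings that gave 0. In those that gave 2, in order, 290, 208, 248, 198 (of 13961), 189, 140 and 132 were. Female against male, with 5 calls, gave 2 with the sample code prefix in place of batch, 0 within FCS lines with or without line 1 of EG FCS, 3 with the replicate block and 0 with batch 1. Over all genes 460 were called higher and 261 lower, and 366 and 160 with the prefix. Within FCS lines they were 3 and 2, or 9 and 2 without line 1 of EG FCS. The block gave 441 and 222, and batch 1 gave 19 and 6. The replicate numbers were not shown to pair the samples. The replicate block gave 13 calls in EG 2i against EG FCS (18 without it) and 27 in ES 2i (31 without it). Leaving out 1 line in turn gave 12 to 19 calls in EG 2i against EG FCS, 12 to 22 in EG 2is (12 without line 1 of EG FCS), 24 to 27 in ES 2i, 2 to 8 in EG 2i against ES 2i, 1 to 2 in the EG minus ES response (2 without EG 2i line 2 or 4, ES FCS line 5 or ES 2i line 3) and 1 to 6 for sex. For sex it was 1 to 3 without any of lines 1 to 4 of EG 2is, 2 to 4 of EG 2i, 3 to 5 of ES FCS, or 1, 3, 4 or 5 of ES 2i. The 3 comparisons with 0 calls kept 0 under every setting run. Own-chromosome probe sets, single-batch settings and sex terms within a medium without line 1 of EG 2i or of EG FCS were added after seeing the data. Of single results under these settings 3296 kept direction and side of the threshold, 276 kept direction and lost a call, 36 gained one, and 73 with no call in either setting changed sign. In 2 a called value changed sign and lost its call, Cox6b2 in ES 2i with batch 1 alone at -0.045 (adjusted p = 0.924) and Cox7a1 for sex within FCS lines without line 1 of EG FCS at 0.102 (adjusted p = 0.926).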
